A study of Mus musculus with 6 samples.

Results

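miR-21a and miR-22 are single-gene miRNAs of the mouse, and both arms of each hairpin were followed here: mmu-miR-21a-5p, mmu-miR-21a-3p, mmu-miR-22-3p and mmu-miR-22-5p. These 4 rows were chosen by name from the 1573 rows of known miRNAs in the deposited count table. The cells were peritubular myoid cells, which ring the seminiferous tubules and contract, taken as primary cells from C57BL/6J mice. 3 libraries came from cells left untreated and 3 from cells given 50 nM endothelin-1 (ET1), a vasoconstrictor peptide, for 5 min at 37 °C. Both groups had been cultured in medium with 10% fetal bovine serum. For the animals' age and number and the purity of the cells, nothing was given in the sources used here. Nothing in the labels says that the libraries of a group were separate cultures, so a p-value here speaks of the variation among these libraries, and that may be technical.

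A miRNA is cut from a hairpin precursor as a duplex of about equal strands. One strand, the main arm, is usually kept by an Argonaute protein, and its seed (bases 2 to 8) pairs with target messenger RNAs, which are then repressed. The other strand, the minor arm, is mostly degraded. miR-21 is abundant in fibroblasts and other stromal cells, is induced by growth factors and TGF-β, and represses Pdcd4 and Sprouty genes. miR-22 is abundant in heart, skeletal and smooth muscle and is known for effects on muscle growth and on cell senescence.

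The mature sequences are shown because the 4 arms are told apart, and pair with targets, through them. They are given 5′ to 3′ from RefSeq (GRCm38.p6), where all 4 members matched by name, with the seed in capitals.
miR-21a-5p: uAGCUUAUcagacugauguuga
miR-21a-3p: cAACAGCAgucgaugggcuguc
miR-22-3p: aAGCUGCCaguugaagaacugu
miR-22-5p: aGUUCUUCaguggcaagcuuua
Each arm was 22 bases long, and tag counts of the 4 arms are compared without a correction for length or sequence. Whether arms of unlike sequence are counted equally well was not tested, so levels of different arms are levels of tags. GC content was 36.4% for miR-21a-5p, 59.1% for miR-21a-3p, 45.5% for miR-22-3p and 40.9% for miR-22-5p, against a median of 52.2% over the 511 tested miRNAs with a sequence in that table. miR-21a-5p begins with U, as did 42.9% of those 511, and both arms of miR-22 begin with A, as did 26.03%. In the RefSeq table no other mature miRNA held the seed of miR-21a-3p, miR-22-3p or miR-22-5p.

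The seed of miR-21a-5p was shared with its paralog miR-21c. The other paralog, miR-21b, differs within the seed. Their sequences are shown because how far tags of paralogs can be told apart depends on them.
miR-21c: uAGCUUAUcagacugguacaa
miR-21b: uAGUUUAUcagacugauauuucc
Base by base from the 5′ end, miR-21c differed from miR-21a-5p at 5 of 21 positions and miR-21b at 4 of 22. Neither paralog is named in the count table. The handling of tags that fit more than 1 mature sequence is not stated in the labels.

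Both genes lie on chromosome 11. Mir21a occupies chr11:86584067-86584158 on the minus strand (GRCm38), overlapping the untranslated part of the last exon of 1 protein-coding transcript of Vmp1, a gene for an autophagy membrane protein. Mir22 occupies chr11:75463716-75463810 on the plus strand, in exons of its non-coding host gene Mir22hg and of a non-coding transcript of Tlcd2. Folded with RNAfold, the 92-base Mir21a hairpin had a minimum free energy of −46.2 kcal/mol and the 95-base Mir22 hairpin −41.9 kcal/mol. Per base these were −0.50 and −0.44, against a median of −0.41 over 1005 mouse hairpins. In the predicted folds 19 and 21 bases of the 5p and 3p arms of miR-21a were paired, and 21 and 21 of miR-22.

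The libraries held 18127265 to 20895432 tags. Known miRNAs made up 30.1% to 45.6% of the untreated and 22.6% to 25.5% of the ET1 libraries, and rRNA fragments 3.22% to 5.63% and 7.12% to 11.02%. Among the untreated libraries, library 3 had the lowest miRNA and the highest rRNA share. The smooth muscle miRNAs that mark the labelled cell type (miR-143 and miR-145a, 4 arms) stood at a summed 19454 to 23874 CPM (tags scaled to a fixed total of known miRNA tags) in untreated and 14002 to 18343 CPM in ET1 libraries, with no overlap between the groups. All 3 tested arms were below 0 in log2 fold change after TMM scaling, with a median of −0.93 (−0.55 by library size alone), and none was called. Most of the sum was miR-143-3p, at 16945 to 22000 CPM in untreated and 11293 to 15850 CPM in ET1 libraries. By library size miR-145a-5p overlapped between groups, at 1850 to 2553 and 2485 to 3086 CPM. Its mean was higher in ET1, at 2759 against 2299 CPM. Markers of other cells were present too: 10 germ cell miRNAs summed to 31346 to 59919 and 45618 to 82179 CPM, and 7 epithelial and Sertoli miRNAs to 981 to 1365 and 818 to 2197 CPM. The latter sum was mostly miR-202-3p, at a mean of 963 CPM in untreated and 1286 CPM in ET1 libraries. Of those 7 miRNAs, 5 were below 0 and 2 above 0 in log2 fold change after TMM scaling. Their median was −0.73 (−0.35 by library size alone), and none was called. Both endothelial miRNAs (miR-126a) summed to 1057 to 1646 CPM in untreated but 131 to 192 CPM in ET1 libraries, and 4 leukocyte miRNAs to 193 to 283 and 39.3 to 46.7 CPM. In neither of these sums did the groups overlap. Beside these and the smooth muscle sum, 5.03% of the 616 single miRNAs tested were lower in ET1 without overlap by library size. After TMM scaling miR-126a-3p was at a log2 fold change of −3.61 (edgeR adjusted p = 0.00019) and miR-150-5p at −3.45 (edgeR adjusted p = 0.00036). The leukocyte sum was mostly miR-150-5p, at 177 to 279 and 24.4 to 35.4 CPM. miR-223-3p, the other leukocyte miRNA tested, overlapped between groups at 3.70 to 14.4 and 7.87 to 18.2 CPM (log2 fold change 0.29, edgeR adjusted p = 0.85). Both arms of miR-142a were too low to be tested, and by library size they were higher in ET1 without overlap. On that scale the median log2 fold change of the 616 was itself 0.37. The share of miRNAs higher without overlap is not given here, so no direction is read from these low values. miR-142a-3p stood at 0 to 0.96 and 1.66 to 3.19 CPM, and miR-142a-5p at 0 to 0.58 and 0.68 to 1.51 CPM. Red cell miRNAs (3 rows) summed to 125 to 874 and 511 to 1485 CPM. The most abundant of them, miR-486a/b-5p, was called higher in ET1 (log2 fold change 2.41, edgeR adjusted p = 0.024). Its adjusted p was 0.12 without untreated library 2 and 0.052 without ET1 library 3. The other red cell row tested was below 0. The liver miRNA miR-122-5p stood at 72.6 to 198 and 24.8 to 526 CPM. No marker of these lists was at 0 in all libraries.

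miR-22-3p was the seventh most abundant known miRNA by mean level over the 6 libraries and ranked between 5 and 10 in each of them. Untreated libraries 1, 2 and 3 held 289396, 312215 and 164354 miR-22-3p tags, and ET1 libraries 1, 2 and 3 held 135857, 92140 and 151118. Scaled to known miRNA tags alone, its level was 35674, 36090 and 26337 CPM in untreated libraries and 29355, 21027 and 31317 CPM in ET1 libraries. Untreated libraries 1 and 2 were the highest, untreated library 3 lay among the ET1 libraries, and ET1 library 2 was the lowest. By this scale the groups therefore overlapped, at a mean of 32701 ± 5514.5 CPM in untreated and 27233 ± 5463 CPM in ET1 libraries (SD, n = 3 each).

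miR-21a-5p was the twenty-first by mean level and ranked between 16 and 24 in each library. Its tags numbered 127776, 101007 and 65974 in untreated libraries 1, 2 and 3, and 69002, 63389 and 61515 in ET1 libraries 1, 2 and 3. Scaled to known miRNA tags, these were 15751, 11676 and 10572 CPM in untreated and 14909.6, 14466 and 12748 CPM in ET1 libraries. All 3 ET1 libraries lay within the range of the untreated libraries, of which library 1 was the highest of all and library 3 the lowest. The means were 12666 ± 2728 CPM in untreated and 14041 ± 1142 CPM in ET1 libraries (SD, n = 3 each).

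The minor arms were more than 100 times less abundant. miR-22-5p had 1108, 992 and 562 tags in untreated libraries 1, 2 and 3 and 575, 362 and 609 in ET1 libraries 1, 2 and 3, which is 137, 115 and 90.1 CPM against 124, 82.6 and 126 CPM. miR-21a-3p had 566, 363 and 501 tags in untreated and 344, 212 and 338 in ET1 libraries, which is 69.8, 41.96 and 80.3 CPM against 74.3, 48.4 and 70.05 CPM. For both minor arms the groups overlapped widely. ET1 library 2 was the lowest of all for miR-22-5p, and untreated library 2 for miR-21a-3p.

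The order of the 4 levels was the same in all 6 libraries: miR-22-3p, then miR-21a-5p, miR-22-5p and miR-21a-3p. The step between the main arms was 1.45 to 3.09 tags of miR-22-3p per tag of miR-21a-5p, that from miR-21a-5p to miR-22-5p 101 to 175 tags per tag, and that between the minor arms 1.12 to 2.73. Against other miRNAs the order was less fixed. miR-181a-5p, the neighbour above miR-22-3p in mean level, was higher than it in 3 of 6 libraries, and miR-34a-5p, the neighbour below, in 2 of 6. miR-423-3p, just above miR-21a-5p, was higher in 4 of 6 libraries, and let-7k, just below, in 1 of 6.

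TMM scaling, which sets the bulk of the miRNAs level between libraries, gave factors of 0.82 to 0.96 in untreated and 1.08 to 1.18 in ET1 libraries. It moved miR-22-3p to 40809.7, 44209.7 and 27573 CPM in untreated libraries 1, 2 and 3 and to 25519, 19469 and 26521.5 CPM in ET1 libraries 1, 2 and 3. On this scale the 3 ET1 libraries were below all 3 untreated libraries, although untreated library 3 stood close to ET1 library 3. The groups did not overlap in this direction for 11% of the 616 miRNAs tested, or for 5.03% by library size alone. miR-21a-5p stood at 18019, 14303 and 11068 CPM in untreated and 12961, 13394 and 10796 CPM in ET1 libraries, and its groups still overlapped, as did those of both minor arms.

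**Figure D1:**
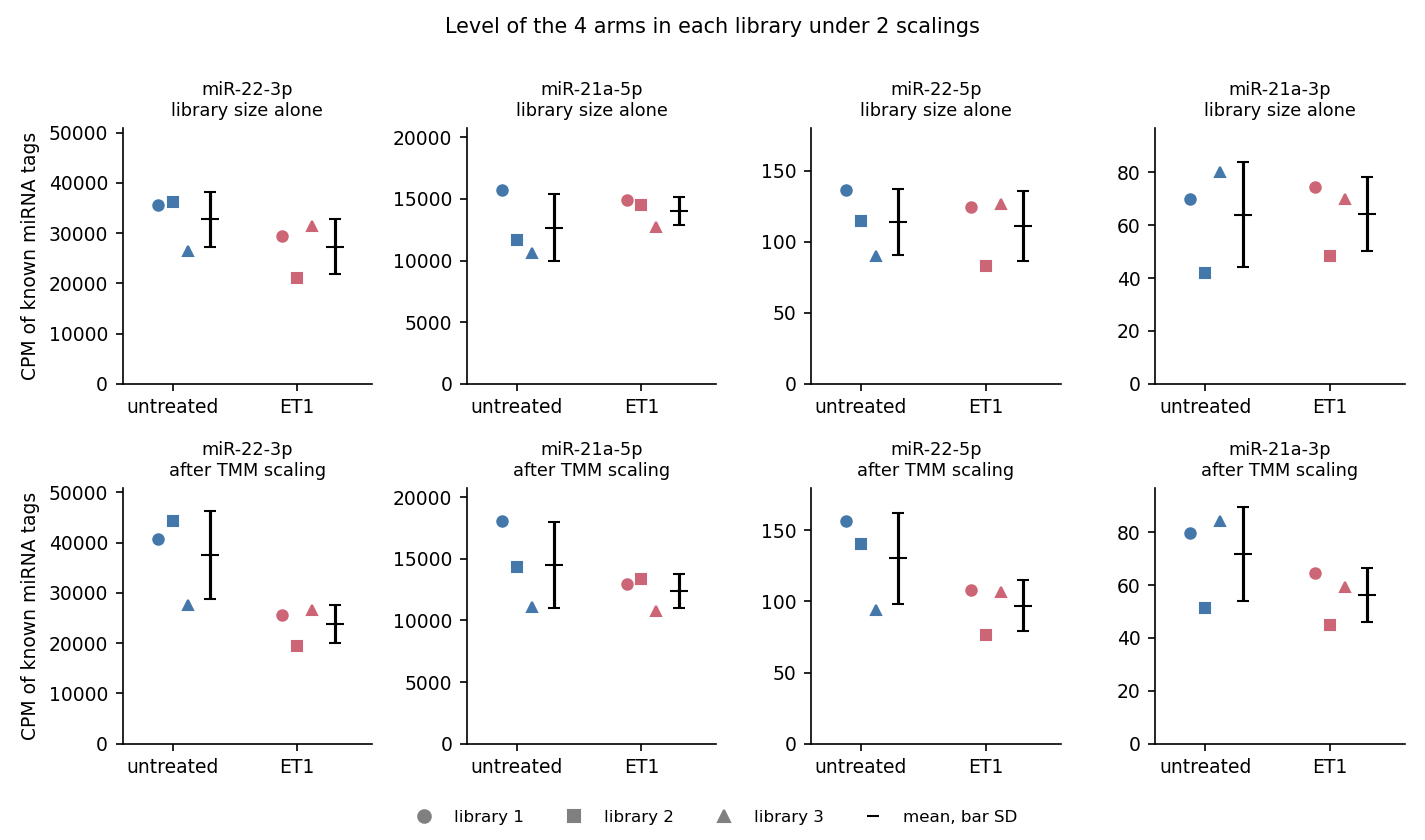
Level of miR-22-3p, miR-21a-5p, miR-22-5p and miR-21a-3p in each library (points, shaped by library number), in CPM of known miRNA tags, by library size alone (top) and after TMM scaling (bottom), with mean and SD beside them (n = 3). For miR-22-3p the groups separate after TMM scaling alone, with untreated library 3 at 27573 and ET1 library 3 at 26521.5 CPM, and the other 3 arms overlap on both scales.

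All 4 arms passed the filter on low counts and were tested with edgeR's quasi-likelihood test after TMM scaling, with Benjamini-Hochberg adjustment over 616 miRNAs. None of the 4 passed an adjusted p of 0.05, where 1.79% of the 616 did, and 1 of the 4 (miR-22-3p) had an unadjusted p under 0.05, as did 18.3% of the 616. By adjusted p none of the 4 passed in DESeq2 or limma-voom either, where 6.33% and 2.27% of the 616 passed. In DESeq2 0 of the 4 had an unadjusted p under 0.05 (18.5% of the 616), and in limma-voom 1 did (20.1%).

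miR-22-3p averaged 37531 ± 8789.6 CPM in the untreated libraries and 23836 ± 3816 CPM after ET1 (SD, n = 3 each). Its log2 fold change was −0.65 (SE 0.30, 95% interval −1.30 to −0.014; edgeR adjusted p = 0.26), a level 1.57-fold lower. Without untreated library 3 the value was −0.82 (edgeR adjusted p = 0.062), and with another library left out it ran from −0.75 to −0.53. Known miRNAs were also a smaller share of tags after ET1, and the rRNA share was higher. The summed smooth muscle markers (mostly miR-143-3p), the endothelial markers and the leukocyte miRNA miR-150-5p were lower. The red cell miRNA miR-486a/b-5p was higher. The part of these in the miR-22-3p difference was not tested. In bulk RNA, fewer cells of a type and less of the miRNA per cell cannot be told apart.

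miR-21a-5p averaged 14463 ± 3478 CPM in the untreated libraries and 12384 ± 1392 CPM after ET1, a log2 fold change of −0.22 (SE 0.30, 95% interval −0.87 to 0.42; edgeR adjusted p = 0.74). The sign followed the scaling: by library size alone the value was 0.15. Without untreated library 1 it was −0.019. The minor arms had wider intervals: miR-22-5p was at −0.42 (95% interval −1.29 to 0.44) and miR-21a-3p at −0.35 (95% interval −1.27 to 0.57), with edgeR adjusted p = 0.64 and 0.71. By library size alone these were −0.035 and 0.0059, so the sign for miR-21a-3p changed too.

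The scaling shifted all miRNAs together, with a median log2 fold change over the 616 of 0.0058 after TMM, 0.37 by library size alone and −0.25 with the tags of all rows as library size. A scaling moves all miRNAs of a library alike, so the distance of a member from that median had to stay nearly the same. miR-22-3p lay at −0.66, −0.64 and −0.69 from the median under these 3 scalings, and miR-21a-5p at −0.23, −0.22 and −0.27. After TMM, 19.3% of the 616 miRNAs had a lower log2 fold change than miR-22-3p, 27.9% a lower one than miR-22-5p, 31.5% than miR-21a-3p and 38.5% than miR-21a-5p. All 4 arms were below the median in each of the 16 settings run. These settings reuse the same 6 libraries and are not independent of each other. The smallest distance was that of miR-21a-5p without untreated library 1, −0.0085 from the median.

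**Figure D2:**
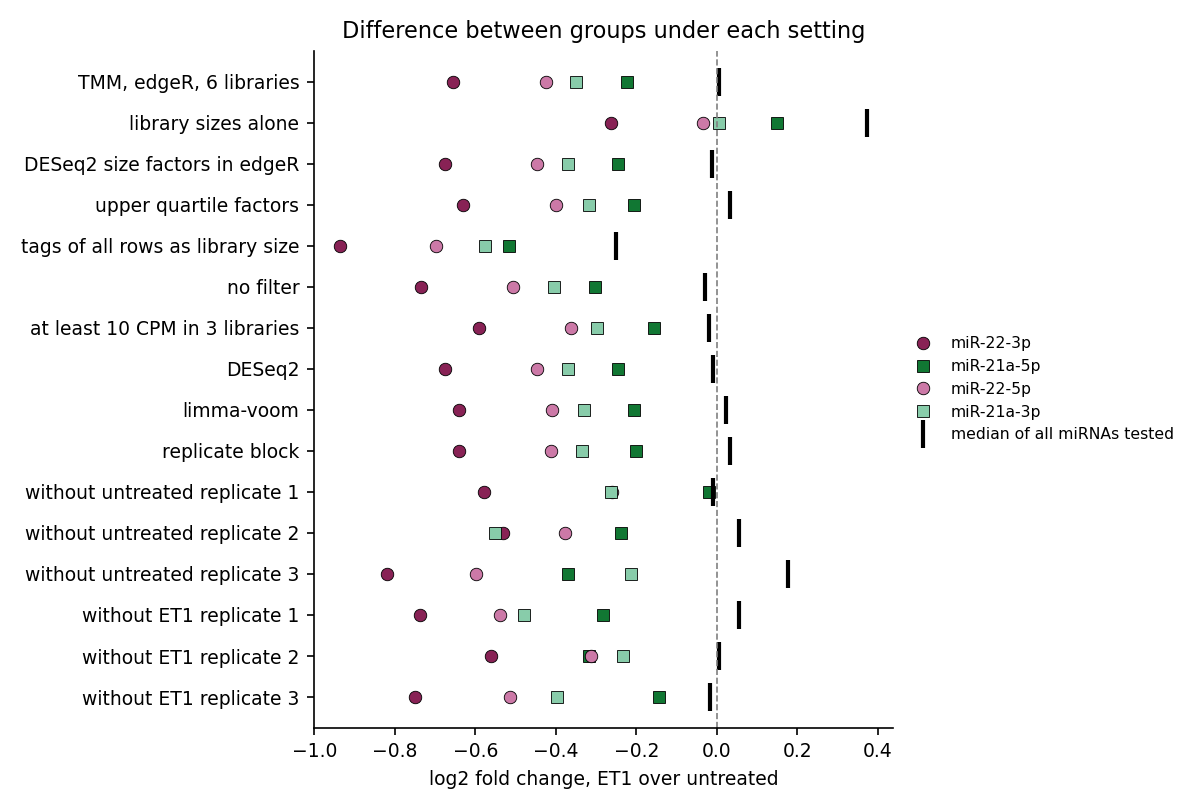
Log2 fold change (ET1 over untreated, horizontal axis) of the 4 arms and the median of all miRNAs tested (bar) under the 16 settings (vertical axis). By library size alone the whole set shifts right, the median to 0.37 and miR-21a-5p to 0.15, while miR-22-3p keeps the most negative value of the 4 arms in every setting but that without untreated library 2, where miR-21a-3p is at −0.55 and miR-22-3p at −0.53.

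Counting error was a small part of the spread for the main arms. The counts of miR-22-3p carried a counting error of 0.18% to 0.33% per library and those of miR-21a-5p 0.28% to 0.40%, while the libraries of a group had coefficients of variation of 23.4% and 16.0% for miR-22-3p and of 24.05% and 11.2% for miR-21a-5p (untreated and ET1, after TMM). For the minor arms counting error was 3.004% to 6.87%, also below the variation between libraries, which was 18.2% to 24.7%. These errors cover counting only, since tags amplified by PCR are not independent molecules.

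Ratios of tags within a library need no scaling between libraries. miR-22-3p per miR-21a-5p was 2.26, 3.09 and 2.49 in untreated libraries 1, 2 and 3 and 1.97, 1.45 and 2.46 in ET1 libraries 1, 2 and 3. The highest ET1 library lay above the lowest untreated library, so the groups overlapped. The mean ratio was 1.96 ± 0.50 in ET1 and 2.62 ± 0.43 in untreated libraries (SD, n = 3 each), a difference of −0.44 in mean log2 ratio (exact permutation p = 0.2, two-sided, where 0.1 is the smallest possible). It ran from −0.62 without ET1 library 3 to −0.24 without ET1 library 2.

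Both hairpins gave nearly all of their tags from 1 arm, but from opposite sides. Over the 6 libraries the 5p arm held 99.5% of miR-21a tags and the 3p arm 99.6% of miR-22 tags. Among the 141 miRNAs with both arms tested the median share of the main arm was 87.2%. Of these, 15 had a larger share than miR-21a and 10 a larger share than miR-22. Hairpins with a minor arm too low to be tested are left out, so strongly one-sided ones can be missing. miR-143 is such a hairpin, with miR-143-5p at 0 to 0.37 CPM in untreated and 0 to 0.86 CPM in ET1 libraries. The ranks hold for the 141 pairs alone. In this set the 5p arm was the larger in 65 and the 3p arm in 76.

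The minor arm of miR-22 made up 0.381% (95% exact binomial interval 0.359 to 0.405), 0.317% (0.297 to 0.337) and 0.341% (0.313 to 0.370) of miR-22 tags in untreated libraries 1, 2 and 3. In ET1 libraries 1, 2 and 3 it made up 0.421% (0.388 to 0.457), 0.391% (0.352 to 0.434) and 0.401% (0.370 to 0.434). All 3 ET1 libraries were above all 3 untreated libraries, though the interval of untreated library 1 overlapped those of all 3 ET1 libraries, and that of untreated library 3 overlapped that of ET1 library 2. The log2 ratio of 5p to 3p was 0.23 higher in ET1 (SE 0.32, 95% interval −0.54 to 1.0007; limma adjusted p = 0.84 over 141 pairs). That SE is mostly the spread that limma borrows from the other arm pairs, since the SDs of the log2 ratio of miR-22 itself were 0.14 in untreated and 0.054 in ET1 libraries. Of the 141 pairs, 8.51% had groups that did not overlap in this direction.

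The minor arm of miR-21a varied more. It made up 0.441% (95% exact binomial interval 0.405 to 0.479), 0.358% (0.322 to 0.397) and 0.754% (0.689 to 0.822) of miR-21a tags in untreated libraries 1, 2 and 3. In ET1 libraries 1, 2 and 3 it made up 0.496% (0.445 to 0.551), 0.333% (0.290 to 0.381) and 0.546% (0.490 to 0.608). Untreated library 3 stood above all others, beyond counting error, and the groups overlapped. The log2 ratio of 5p to 3p differed by 0.13 (SE 0.44, 95% interval −0.91 to 1.17; limma adjusted p = 0.96), and by −0.18 without untreated library 3 or −0.083 without ET1 library 2. Of the 141 pairs 0 passed in limma (0%), and 17 (12.1%) had an unadjusted p under 0.05.

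**Figure D3:**
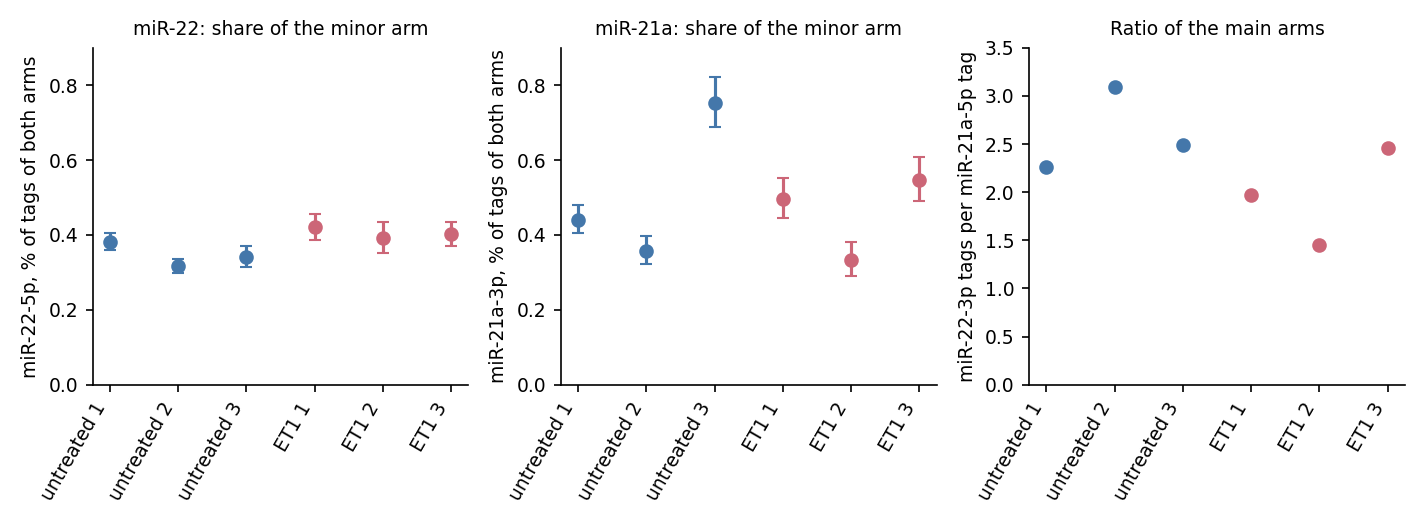
Share of the minor arm among the tags of both arms, in percent, for miR-22 (left) and miR-21a (middle) with 95% exact binomial intervals, and tags of miR-22-3p per tag of miR-21a-5p (right), in each of the 6 libraries (blue untreated, red ET1). The miR-22-5p share is at 0.391% to 0.421% in ET1 and 0.317% to 0.381% in untreated libraries, and untreated library 3 stands apart for miR-21a-3p at 0.754%.

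The miRNAs with the pattern most like each main arm were sought among 180 others with a mean of at least 100 CPM, by the root mean square difference of log2 levels over the 6 libraries after centring. For miR-22-3p these were miR-382-5p, a miRNA of the Dlk1-Dio3 imprinted cluster, at 0.11, miR-100-5p at 0.13 and miR-103-3p at 0.14, against a median of 0.53 over all 180. Their own log2 fold changes were −0.50, −0.67 and −0.80. For miR-21a-5p they were miR-23b-3p at 0.12, its cluster neighbour miR-27b-3p at 0.13 and let-7b-5p at 0.14, against a median of 0.56. Their log2 fold changes were −0.29, −0.19 and −0.33. The main arms differed from each other by 0.34 on this measure, and 31 of the 180 were nearer to miR-22-3p, and 28 nearer to miR-21a-5p, than they were to each other. With n = 6 libraries that share the 2 groups and their depths, this is a description.

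**Figure D4:**
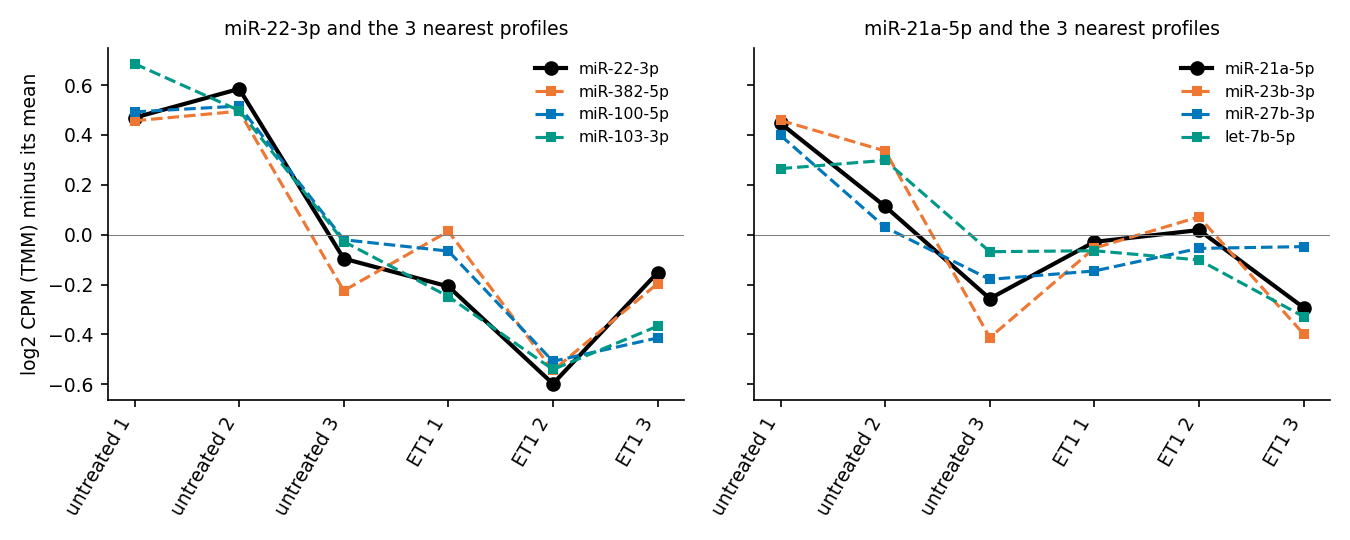
Centred log2 CPM after TMM scaling (vertical axis) in the 6 libraries (horizontal axis) for miR-22-3p (left) and miR-21a-5p (right), each with the 3 miRNAs of the nearest profile. Lines only guide the eye. miR-22-3p is at 0.47, 0.58 and −0.096 in untreated libraries 1, 2 and 3 and at −0.21, −0.60 and −0.15 in ET1 libraries 1, 2 and 3.

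Other stromal miRNAs, from a list of 25 names that includes miR-199, miR-214, miR-29, miR-100 and miR-125b, were counted beside the members. This list shares miR-143-3p and miR-145a-5p with the smooth muscle markers. It shares miR-31-5p, miR-221-3p, miR-222-3p and miR-24-3p with the stimulus-responsive list below, so the lists are not independent of each other. Of the 23 tested rows of the stromal list, 7 were above 0 and 16 below 0 in log2 fold change. Their median was −0.28 against 0.0058 for all 616, or 0.12 against 0.37 by library size alone. Of the 616, 8 were called higher and 3 lower, together 1.79%. None of the 23 was called higher and 1 was called lower. It was miR-10b-5p, a miRNA of the Hoxd cluster, at −1.85 (edgeR adjusted p = 0.026, 0.12 when untreated library 2 was left out, and 0.066 and 0.095 for the second and the third ET1 library). The most abundant of the list, miR-34a-5p, a p53 target, was at −0.38 (edgeR adjusted p = 0.58). Of 15 stimulus-responsive miRNAs, all tested, 5 were positive and 10 negative with a median of −0.59, or −0.18 by library size alone. None of the 15 was called, which at 1.79% of the 616 called says nothing particular of the list. The most abundant was miR-24-3p at −0.65 (edgeR adjusted p = 0.30).

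The authors' deposited table, which compares counts pooled over the 3 libraries of a group, lists all 4 arms. Its pooled counts were equal to the sums of the library counts for each arm. In the authors' deposited table miR-22-3p is marked down with a log2 ratio of −0.32 and p and q listed as 0, and miR-21a-5p up with 0.092 and p = 4.08e-113. In the authors' deposited table miR-22-5p has a log2 ratio of −0.087 (p = 0.050, q = 0.019) and miR-21a-3p 0.019 (p = 0.75, q = 0.19). The log2 ratios of miR-21a-5p and miR-21a-3p in the authors' deposited table have the sign found here by library size alone, not that after TMM scaling. The mean values per total tags in the authors' deposited table point the other way, with miR-21a-5p at 4873 in untreated and 3405 in ET1 and miR-21a-3p at 23.5 and 15.7 (RPM). Pooled counts carry no spread between libraries.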

How the data were processed

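Small RNA of 6 libraries was analysed from the table of tag counts that the authors deposited. Per the submitters' processing notes Bowtie2 and the build mm10 were used; the number of mismatches is not stated there. A second value per library, headed TPM per the file headers, is from the values an RPM of all tags. The authors also deposited a comparison table with pooled counts, mean RPM, a log2 ratio and p-values and q-values. Counts alone were tested here.

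Known miRNA rows were tested in R 4.3.3 with edgeR 4.0.16 (TMM over these rows, library size the known miRNA tags, default filter, robust quasi-likelihood fit, group as the only term, two-sided). Arm ratios, log2 of 5p over 3p with a pseudocount of 0.5, were tested with limma 3.58.1 over all pairs whose arms passed that filter. The ratio of the main arms was tested by exact permutation. Both fits were run on simulated data with less variation between libraries than edgeR estimated for the members (44.2% to 48.9%). Those runs therefore do not show the power or the error rate in these data. Alternatives were 3 other scalings and the tags of all rows, 2 filters, DESeq2 1.42.0, limma-voom, a replicate block and each library left out. No pair of libraries of a group was within sampling noise (336 to 1212 as chi-square over degrees of freedom).

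Named beside the 4 members were seed sharers and paralogs, the 3 nearest profiles and the neighbours in rank. Of the stromal and stimulus-responsive lists the most abundant and the called miRNAs were named, with those shared between lists. Some of the cell type markers were named as well. The members and lists were chosen with earlier results of these data known. Hairpins were folded with ViennaRNA 2.7.2, and the gene context is from GENCODE M21.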

Additional observations from a re-analysis of the deposited data

How the results depend on the processing

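None of the 4 arms passed the threshold under any of the 15 alternatives. By library size alone the log2 fold change of miR-21a-5p was 0.15 and that of miR-21a-3p 0.0059, above 0 in place of below; the other signs did not change. With 1 library left out, miR-22-3p ran from −0.82 to −0.53, miR-22-5p from −0.60 to −0.26, miR-21a-5p from −0.37 to −0.019 and miR-21a-3p from −0.55 to −0.21. The miR-22 arm ratio ran from 0.17 to 0.30, that of miR-21a from −0.18 to 0.36 (0.13 with all libraries), and the ratio of the main arms from −0.62 to −0.24. The count of known miRNAs called, 11, was 41 by library size alone, 37 with no filter (1368 tested), 39 in DESeq2 14 in limma-voom and 21 with the replicate block, and 2 to 30 with 1 library left out. Arm pairs called were 2 with a pseudocount of 5, 1 with both arms at 10 CPM or more in 3 libraries (85 pairs), and 0 to 2 with 1 library left out. The cause was not tested. With a minimum of 1000 CPM the nearest profile to miR-22-3p was miR-100-5p at 0.13, and 2 of the 3 names were shared. Same-numbered libraries correlated in their deviations from the group means at 0.29, 0.069 and 0.28, each the highest for its library. The labels do not say that equal numbers pair the libraries, so they were not taken as pairs. Whether they are pairs is not settled by these values. The replicate block gave −0.64 for miR-22-3p, −0.20 for miR-21a-5p, −0.41 for miR-22-5p and −0.34 for miR-21a-3p, and changed no call among the arms; the arm ratios stayed at 0.23 and 0.13. Counts were lowest for the minor arms, at 212 to 1108 tags per library, where counting error was still below the variation between libraries.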

Other observations

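Besides the mature arms, the count table holds a row for each of the 2 Rfam precursor families, tags that the authors assigned to the family and not to a mature arm. The mir-21 family row held 1425, 2111 and 2001 tags in untreated libraries 1, 2 and 3 and 1122, 550 and 1725 in ET1 libraries 1, 2 and 3, which is 8.65 to 30.1 tags per 1000 mature miR-21a tags. In each library it held more tags than miR-21a-3p did. The mir-22 family row held 3 to 10 tags in a library, or 0.0096 to 0.073 per 1000 mature miR-22 tags. Which bases these tags cover is not given in the table, so they entered no comparison. Of 26581 rows with genome coordinates (predicted miRNAs and predicted piRNAs), 0 overlapped either hairpin.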
